A study of Arabidopsis thaliana with 4 samples.

Results

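AT3G45700 and AT3G45710 are neighbouring Arabidopsis genes of the NPF family (NRT1/PTR family), which stand side by side in a tandem cluster of related transporter genes on chromosome 3. They were chosen because both were lower after induction of RKD4 in these arrays, so their own change is described here and not tested. Members were found as the probe sets that the platform annotation assigns to exactly 1 of the 2 loci, which gave 2 of the 22746 probe sets tested, 1 for each gene. Both probe set names end in the plain "at", the form used for probe sets designed to read a single transcript, and neither carries the "s" or "x" mark of a probe set expected to hybridise with several. The name was the only check, since no probe sequences were at hand, and cross-signal between these related genes was not tested.

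NPF proteins lie in cell membranes and carry small solutes into or out of cells together with protons, or as passive flow. Nitrate is the best known of these solutes, and others are chloride, peptides, glucosinolates and plant hormones. In the published nomenclature of the family the pair belongs to the NPF2 subgroup, as NPF2.4 (AT3G45700) and NPF2.5 (AT3G45710). The gene table used here gives both by locus only. Both have been studied in Arabidopsis roots for chloride transport, AT3G45700 for loading of chloride into the xylem in the stele and AT3G45710 for release of chloride from the root. NAXT1, a neighbour in the same cluster, exports nitrate from root cells.

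Col-0 seedlings were read on 4 Affymetrix arrays. In the induced group (strain UAS-RKD4 35S-GVG), RKD4, an embryo transcription factor of the RWP-RK family, was placed under UAS sites, to which the dexamethasone-dependent fusion activator GVG binds. The control group (strain 35S-GVG) carried GVG alone, driven in both groups by the broadly active 35S promoter. Both groups were moved to 1 µM dexamethasone on day 2 after germination, received it for 24 h and were collected on day 3, with 2 arrays per group and a pool of 60 seedlings per array. All arrays came from treated seedlings, so a difference between the lines that does not come from RKD4 cannot be told apart from one that does. No probe set in the table used here is assigned to RKD4, and the labels could not be checked with it. The arrays had median signals of 175 to 185, and 2 arrays per group limit the precision of every value. Whole seedlings were read, so fewer cells of a type and less RNA per cell cannot be told apart.

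Both genes of the pair were lower in RKD4-induced seedlings, and AT3G45710 by more. The signal of AT3G45700 was 27.7 and 23.2 on the RKD4-induced arrays, against 123 and 113 on the control arrays. The groups lay far apart, since the lowest control signal was 4.09 times the highest induced one, while the arrays of each group lay close together. The mean was 25.5 ± 3.23 in RKD4-induced and 118 ± 6.51 in control seedlings (SD, n = 2 each). Both induced signals of AT3G45700 were under 32.4, the 25th percentile of all signals, which was added to each signal before the log2 as a pseudocount. Weak signals of this size have no sure level, so the gene is given as at least 3.64-fold lower, the control mean over 32.4, while the ratio of the measured means was 4.64.

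The signal of AT3G45710 was 124 and 149 on the RKD4-induced arrays, against 1084 and 959.7 on the control arrays. The lowest control signal was 6.43 times the highest induced one. Between 2 and 2 arrays a 2-sided permutation p can be no lower than 0.333, so the separation of the groups is described only. The mean was 137 ± 17.8 in RKD4-induced and 1022 ± 88.1 in control seedlings (SD, n = 2 each), which is lower by 7.48-fold. All 4 signals of AT3G45710 were over the pseudocount. Both induced signals were still under the array medians of 175 to 185, and detection calls were not used.

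**Figure D1:**
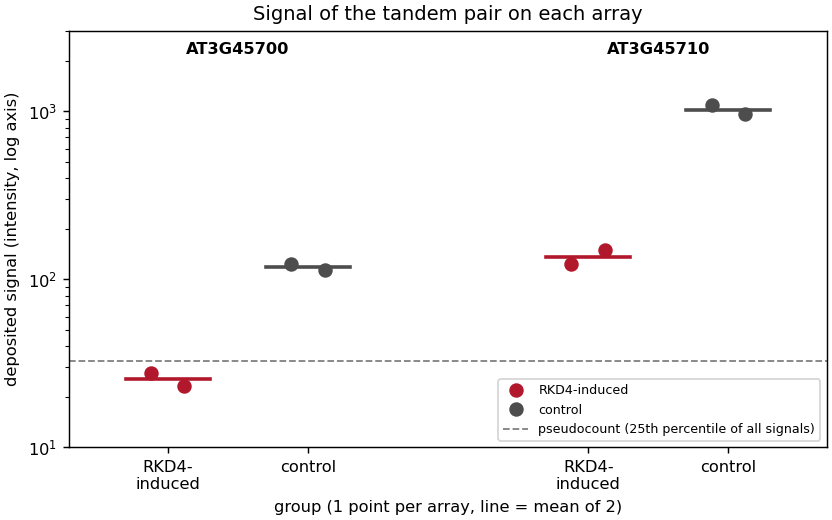
Deposited signal of AT3G45700 and AT3G45710 on each array, on a log axis, with 1 point per array, a line for each group's mean of 2 arrays and a dashed line at the pseudocount of 32.4. Both RKD4-induced arrays lie under both control arrays for each gene, and the RKD4-induced signals of AT3G45700 (27.7 and 23.2) lie under the dashed line.

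Adding 32.4 before the log2 makes changes of weak genes look smaller. On that scale the difference of RKD4-induced minus control was -1.38 ± 0.18 (SE) for AT3G45700 and -2.64 ± 0.14 for AT3G45710. AT3G45710 had the 6th lowest log2 change of the 22746 probe sets and the 2nd lowest of the 13286 genes that have a probe set of their own. Here a probe set of its own is a probe set that the annotation assigns to that gene alone. The annotation gave no gene for 8730 probe sets, so a gene without a probe set of its own may still be on the array. AT3G45700 had the 179th lowest of the probe sets and the 89th lowest of the genes. These ranks describe the values by which the pair was chosen and support nothing further.

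The distance between the members depended on how weak signals were handled. With the pseudocount of 32.4 the log2 change of AT3G45710 minus that of AT3G45700 was -1.26. With a pseudocount of 1 AT3G45700 lay at -2.17 and AT3G45710 at -2.90, and the distance was -0.72. The value of AT3G45700 thus grew by over 1.5 times at the smaller pseudocount, while that of AT3G45710 moved less, from -2.64 to -2.90. With single arrays left out in turn, the log2 change of AT3G45700 lay between -1.44 and -1.32 and that of AT3G45710 between -2.75 and -2.53.

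The question of whether the change was shared along the chromosome was read from the order of protein-coding genes in the TAIR10.1 gene table. In that order AT3G45680, AT3G45690, AT3G45700, AT3G45710 and AT3G45720 follow each other as an unbroken run of 5 NPF2 genes, all of which have a probe set of their own. Around the pair, 10 of the 20 nearest coding genes (10 on each side) had a probe set of their own. Of these 10 neighbours 1 fell and 2 rose at an adjusted p under 0.05 (limma), while 10.4% of the 13286 genes with a probe set of their own fell and 9.60% rose. Their median log2 change was -0.10, against -0.08 over all probe sets.

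AT3G45680, which stands 2 genes before AT3G45700 and takes part in nitrate transfer from root to shoot, was the neighbour that fell. Its signal was 63.0 and 41.2 on the RKD4-induced arrays, against 107 and 112 on the control arrays. It fell by 0.76 ± 0.20 on the log2 scale with an adjusted p of 0.0444 (limma, Benjamini-Hochberg). This call was close to the threshold. It was lost with quantile normalization (-0.67, adjusted p 0.0647), median centring (-0.71, 0.0526), the pseudocounts at the 10th percentile (-1.02, 0.0535) and of 1 (-1.09, 0.0552), and with any 1 array left out (adjusted p up to 0.191).

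The genes directly on either side of the pair read close to the pseudocount in both groups. AT3G45690, directly before AT3G45700, had signals of 25.5 and 18.9 in RKD4-induced and 17.4 and 33.3 in control seedlings, and its log2 change was -0.07 ± 0.20 with an adjusted p of 0.848. AT3G45720, directly after AT3G45710, had signals of 31.8 and 28.0 in RKD4-induced and 29.7 and 39.6 in control seedlings, and its log2 change was -0.10 ± 0.18 with an adjusted p of 0.733. Each read over the pseudocount only on control replicate 2, so a fall of these transporter genes was not detectable at these signals. Neither gene showed a rise that passed. Without control replicate 2 the log2 change of AT3G45690 was 0.13 and that of AT3G45720 was 0.00402, and AT3G45690 also turned above 0 (0.0164) without RKD4-induced replicate 2.

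The other loci of the cluster, NAXT1 (AT3G45650) and AT3G45660, share 1 probe set with the "s" mark, whose signal cannot be divided between them. That shared probe set read 149 and 142 on the RKD4-induced arrays, against 254 and 233 on the control arrays. It fell by 0.63 ± 0.15 with an adjusted p of 0.0307 (limma), and the decline cannot be given to either gene.

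Among the neighbours outside the NPF family 2 of 7 rose in limma, compared with 9.60% of all genes with a probe set of their own, and these 2 were also the only ones of the 7 at an unadjusted p under 0.05. AT3G45630 read 233 and 261 on the RKD4-induced arrays, against 149 and 117 on the control arrays, and rose by 0.76 ± 0.17 (adjusted p 0.0265). AT3G45770 read 538 and 542 on the RKD4-induced arrays, against 391 and 377 on the control arrays, and rose by 0.46 ± 0.11 (adjusted p 0.0331). Both lost their calls with any 1 array left out, with an adjusted p up to 0.146 for AT3G45630 and 0.132 for AT3G45770. AT3G45770 also lost its call without the variance trend (0.0566).

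**Figure D2:**
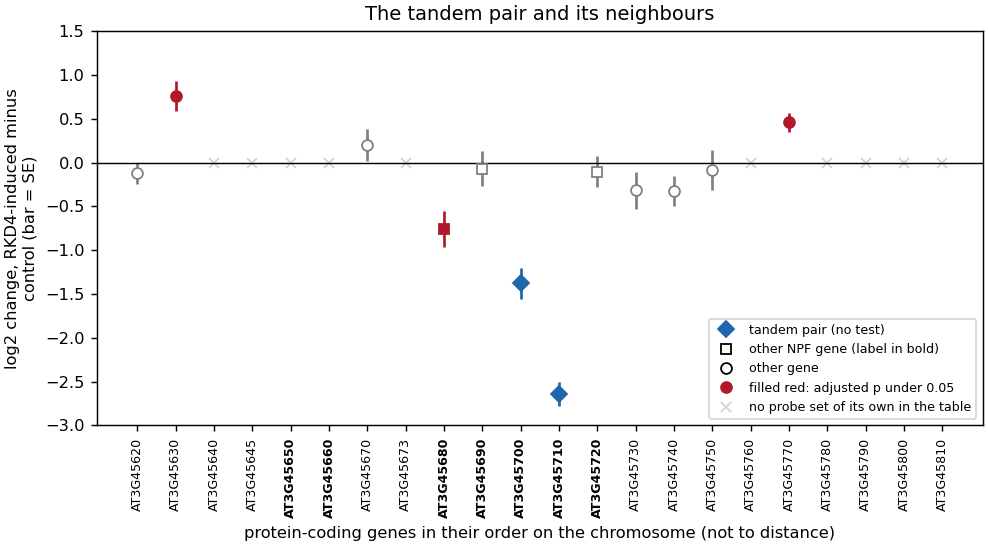
Log2 change of RKD4-induced minus control (bars, SE) for the tandem pair and the 10 protein-coding genes on each side, in chromosome order and not to distance, with NPF loci in bold and a cross where the table holds no probe set of that gene alone. The pair lies at -1.38 and -2.64, AT3G45680 at -0.76, and the directly adjoining AT3G45690 and AT3G45720 at -0.07 and -0.10.

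Elsewhere in the NPF family more genes fell than rose. The family list holds 53 loci, of which 34 had a probe set of their own, the pair included. Of the 32 other measured NPF genes 9 fell, 1 rose and 22 did not pass at an adjusted p under 0.05 (limma). The 9 that fell are 28.1% of the 32, while 10.4% of all genes with a probe set of their own fell. The 1 that rose is 3.12% of the 32, against 9.60% of those genes. The median log2 change of the 32 was -0.45, compared with -0.08 over all 22746 probe sets, those without a gene included. Of the 32, 26 lay below 0, as did 13275 of the 22746 probe sets. All 9 that fell were among the 20 whose mean signal over the 4 arrays was at or over the pseudocount, and 4 of the 32 read under it on every array. With quantile normalization or median centring 7 fell and 1 rose. With any 1 array left out, fewer of these NPF genes fell, and fewer of all probe sets fell as well. In those fits 1 group held only 1 array, and the ranges of both counts are given at the end.

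In the NPF2 subgroup to which the pair belongs, 3 of the 7 other measured genes fell, compared with 10.4% of all genes with a probe set of their own. All 7 had log2 changes below 0, as had 13275 of the 22746 probe sets. GTR2 (AT5G62680), a glucosinolate transporter, read 212 and 165 on the RKD4-induced arrays, against 543 and 452 on the control arrays, and fell by 1.26 ± 0.17 (adjusted p 0.00453). GTR1 (AT3G47960), the related glucosinolate transporter, read 304 and 314 on the RKD4-induced arrays, against 471 and 509 on the control arrays, and fell by 0.61 ± 0.12 (adjusted p 0.0164). The third was AT3G45680 of the cluster. GTR2 kept its call with any 1 array left out, with an adjusted p up to 0.0440, while GTR1 lost it in each of those 4 cases, with an adjusted p up to 0.0940.

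The remaining NPF2 genes were weak. AT1G69860 read 2.75 and 3.10 on the RKD4-induced arrays, against 15.6 and 33.9 on the control arrays, and did not pass (-0.67 ± 0.20, adjusted p 0.0582). It passed with a pseudocount of 1 (-2.62, 0.0402), at the 10th percentile (-1.78, 0.0408), with the replicate number as a block (0.0383) and without control replicate 1 (-0.91, 0.0435). AT5G28470 read 19.4 and 5.14 on the RKD4-induced arrays, against 33.7 and 46.9 on the control arrays, and did not pass either (-0.72 ± 0.22, adjusted p 0.0660). Measured against these relatives, the log2 changes of AT3G45700 and AT3G45710 were the lowest of the 9 measured NPF2 genes at the pseudocount of 32.4, a description that follows in part from how the pair was chosen. With a pseudocount of 1 AT1G69860 (-2.62) lay below AT3G45700 (-2.17).

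Of 13 measured NPF5 genes 5 fell and 1 rose, compared with 10.4% and 9.60% of all genes with a probe set of their own. AT1G22550, a transporter of the vacuolar membrane studied for the release of stored nitrate, read 235 and 170 on the RKD4-induced arrays, against 475 and 553 on the control arrays, and fell by 1.23 ± 0.18 (adjusted p 0.00599). AT2G40460 read 73.2 and 76.9 on the RKD4-induced arrays, against 206 and 226 on the control arrays, and fell by 1.21 ± 0.16 (adjusted p 0.00482). AT1G72140, another transporter of the vacuolar membrane, had a mean of 182 ± 24.4 in RKD4-induced and 376 ± 20.1 in control seedlings (SD, n = 2 each) and fell by 0.93 ± 0.15 (limma, adjusted p 0.00838). AT1G22540 fell by 0.82 ± 0.15 and AT3G01350 fell by 0.78 ± 0.21. The call of AT3G01350 (adjusted p 0.0454) was lost with both other scalings (up to 0.0653) and with any 1 array left out (up to 0.201). AT1G22540 and AT1G72140 each lost their call in 3 of 4 cases with an array left out, with an adjusted p up to 0.0880 and 0.0645, and AT1G22550 in 1 of them, at 0.0550.

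AT3G53960 was the single NPF gene that rose. It read 452 and 402 on the RKD4-induced arrays, against 136 and 143 on the control arrays, with a log2 change of 1.42 ± 0.14 and an adjusted p of 0.00176, and it kept its call in every setting tried. AT3G53960 thus moved opposite to the pair within the same family.

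In the NPF6 subgroup, AT2G26690, a nitrate transporter of leaf petioles, read 582 and 688 on the RKD4-induced arrays, against 1195 and 1384 on the control arrays, and fell by 0.99 ± 0.13 (adjusted p 0.00448). The other measured NPF6 genes, AT5G13400 (-0.47 ± 0.16) and AT3G21670 (0.27 ± 0.10), did not pass. None of the 6 measured NPF4 genes passed in limma, and 1 of them had an unadjusted p under 0.05. The 1 measured gene each of NPF1 (-0.51 ± 0.15), NPF3 (-0.29 ± 0.12) and NPF7 (-0.01 ± 0.14) did not pass. Those of NPF1 and NPF7, and 2 of the 6 NPF4 genes, read under the pseudocount on every array. These were too weak for a fall to be read. No probe set was assigned to an NPF8 gene alone.

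**Figure D3:**
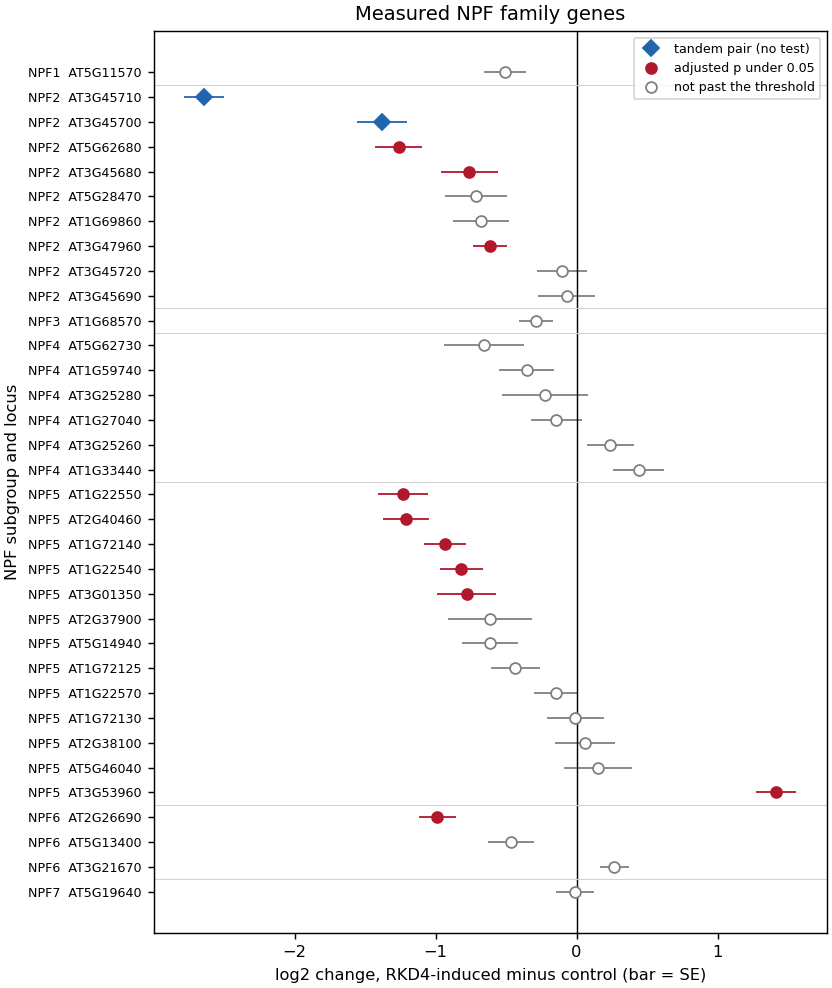
Log2 change of RKD4-induced minus control (bars, SE) for the 34 measured NPF genes, grouped by subgroup and ordered by change within it, with the tandem pair as blue diamonds and genes at an adjusted p under 0.05 as filled red points. Of the 32 other genes 9 lie to the left as filled points, down to -1.26 for GTR2 (AT5G62680), and AT3G53960 lies alone to the right at 1.42.

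Tandem runs of NPF genes elsewhere in the genome were looked at after these values were seen. The 53 listed loci form 6 runs of directly adjoining coding genes, and 3 of the runs have at least 2 genes measured here. In the run of AT1G22540, AT1G22550 and AT1G22570 the first and second fell, as given above, and AT1G22570 did not pass (-0.15 ± 0.16). In the run that holds AT1G72125, AT1G72130 and AT1G72140, AT1G72140 fell and AT1G72125 (-0.43 ± 0.18) and AT1G72130 (-0.01 ± 0.20) did not pass. AT1G72130 read 33.8 and 16.4 on the RKD4-induced arrays and 25.6 and 23.9 on the control arrays, again near the pseudocount. These runs and that of the pair each held genes that fell and genes that did not pass.

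Beyond the NPF family, a list of 24 genes for nitrate and chloride transport and for nitrate reduction could be read through 1 gene only. NRT2.5, a high-affinity nitrate transporter, read 211 and 149.5 on the RKD4-induced arrays, against 122 and 149 on the control arrays, and did not pass (0.33 ± 0.20, adjusted p 0.309).

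Since the roles described for AT3G45700 and AT3G45710 lie in the root, markers of root tissues and of leaves were set beside them. Of 47 root marker genes 7 were measured, and 3 of these fell, compared with 10.4% of all genes with a probe set of their own. The summed signal of the 7 lay between 2943 and 3195 on the RKD4-induced arrays and between 4325 and 4829 on the control arrays. All 7 had log2 changes below 0, as had 13275 of the 22746 probe sets. The median of the 7 was -0.51, against -0.08 over all probe sets. AT1G62500, whose promoter marks root cortex, read 387 and 491 on the RKD4-induced arrays, against 1017 and 1042 on the control arrays, and fell by 1.18 ± 0.14 (adjusted p 0.00285). EXPA7 and EXPA18, expansin genes of growing root hairs, were the measured root hair genes and fell by 0.83 ± 0.15 and 0.71 ± 0.15 (adjusted p 0.0126 and 0.0205). AT1G09750, another gene used as a root cortex marker, was at -0.09 ± 0.12 and did not pass (adjusted p 0.640).

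Of the remaining root markers, GSO1, a receptor kinase of the endodermal barrier, was at -0.51 ± 0.17 (adjusted p 0.0778), and it passed with the filter on weak probe sets (0.0295) and with the replicate number as a block (0.0299). LHW, a regulator of vascular cell number and the single stele gene measured of 17, was at -0.37 ± 0.17 (adjusted p 0.166), and JKD, a regulator of root ground tissue, was at -0.00347 ± 0.19. The CASP genes of the endodermis had no probe set of their own here. The part of root tissue in the change of the pair was not tested. EXPA7 and EXPA18 each lost their call in 3 of 4 cases with an array left out, with an adjusted p up to 0.0855 and 0.120.

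The leaf markers did not separate the groups. Of 14 listed, 3 were measured, and their summed signal lay between 60125 and 63767 on the RKD4-induced arrays and between 59838 and 71006 on the control arrays, so the groups overlapped. RCA (-0.15 ± 0.17), PRK (0.06 ± 0.12) and SBPASE (-0.02 ± 0.12), enzymes of carbon fixation, did not pass, and none had an unadjusted p under 0.05 in limma.

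Genes with the pattern most like each member were found by the Euclidean distance over the 4 arrays between log2 values centred on each gene's mean, among 13285 other genes. For AT3G45700 these were AT5G45650 (distance 0.0481), AT3G47510 (0.0651), AT2G38180 (0.0947), AT2G24350 (0.0971) and ATSBT5.2 (AT1G20160, 0.103). Their log2 changes lay between -1.46 for AT2G38180 and -1.28 for ATSBT5.2, close to the -1.38 of AT3G45700. This closeness depended on the pseudocount. AT2G24350 read 1.78 and 1.86 on the RKD4-induced arrays, both under the pseudocount, against 60.4 and 57.7 on the control arrays. With a pseudocount of 1 AT3G45700 lay at -2.17 and AT2G24350 at -4.41, and AT2G24350 was only the 7345th nearest. The other listed genes then lay between -1.69 for AT2G38180 and -1.46 for AT5G45650. AT5G45650, the nearest, read 395 and 350 on the RKD4-induced arrays, against 1037 and 1007 on the control arrays.

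For AT3G45710 the nearest genes lay farther off, at distances of 0.373 for AT4G33550, 0.413 for LTI30, 0.445 for AT1G33055, 0.457 for SP1L4 and 0.478 for AT4G30460. LTI30 encodes a dehydrin of cold and drought, and SP1L4 is a relative of the microtubule protein SPIRAL1. AT4G33550 read 89.8 and 116 on the RKD4-induced arrays, against 632 and 614 on the control arrays, with a log2 change of -2.28 that was smaller than that of AT3G45710. AT1G33055 read 6.23 and 18.1 on the RKD4-induced arrays, both under the pseudocount, against 181 and 165 on the control arrays. Its log2 change was -2.22, and -3.89 with a pseudocount of 1. No gene stood among the 5 nearest of both members. None could, since these genes lie within 0.478 of their member and the members lie 1.29 apart.

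Between the members themselves, AT3G45700 was the 75th nearest gene to AT3G45710, and AT3G45710 the 5775th nearest to AT3G45700, at a distance of 1.29. Values were centred but not scaled, so this distance mostly follows the gap in log2 change (-1.26, AT3G45710 minus AT3G45700). The ranks do not tell whether the patterns of the members differ in other ways. With a pseudocount of 1 AT3G45700 was the 71st nearest to AT3G45710, and AT3G45710 the 214th nearest to AT3G45700, so the second of these ranks moved widely. At that pseudocount none of the 5 nearest genes of either member was among its 5 nearest again, so these lists depend on the handling of weak signals.

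**Figure D4:**
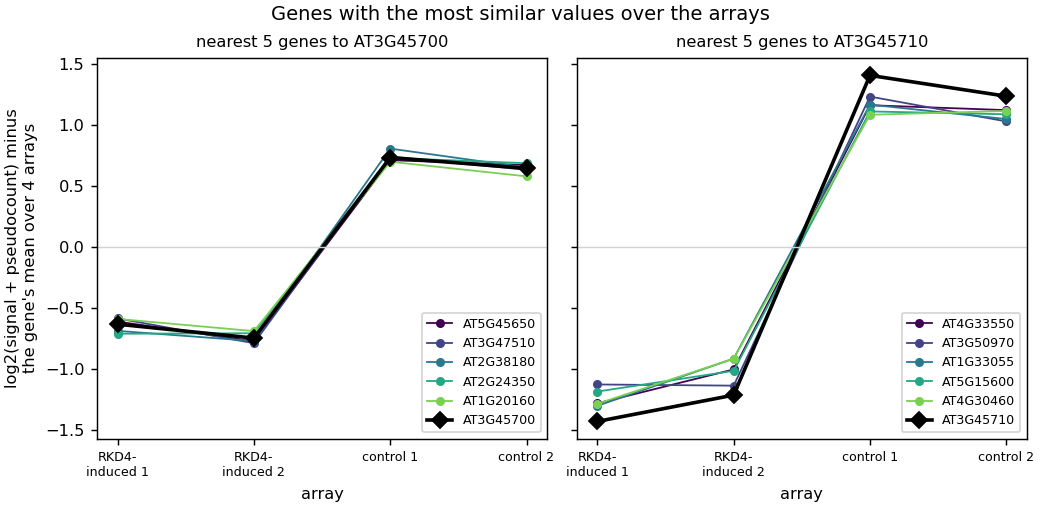
Log2(signal + 32.4) minus the gene's mean over the 4 arrays for AT3G45700 (left, black) and AT3G45710 (right, black), each with the 5 genes at the smallest distance, and lines that join the values of a gene over the arrays. The 5 genes on the left nearly cover AT3G45700, at distances of 0.0481 to 0.103, while AT3G45710 lies outside its 5 genes, at distances of 0.373 to 0.478.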

How the data were processed

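Each array read biotin-labelled cRNA of 1 seedling pool. Signals came from GCOS (software by Affymetrix), per the submitters' processing notes, with no settings listed. The authors deposited intensity, a linear signal summarised for each probe set. With the lowest and highest 2% trimmed, each array's mean lay close to 500.05, and the values were not scaled again. Detection calls were not used. Of 22810 probe sets 64 controls were left out, and 22746 were tested.

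A model of log2(signal + 32.4) with only the group as a term was fitted in limma 3.58.1 (R 4.3.3) with a variance trend. Two-sided p-values were adjusted across the whole array (Benjamini-Hochberg), and 0.05 was the threshold. The labels do not tell whether pools were grown separately, and p-values cover only the spread between them. The fit was tested on simulated independent values with known changes, which checks the calculation and not effects shared by real pools or arrays.

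The platform annotation gave 1 gene for 13513 probe sets, several for 503 and none for 8730, and 13436 of the first were found in the TAIR10.1 gene table. Where a gene had several probe sets, the one with the highest mean signal was used. The array's build is not given in the sources used here, so gene order and no coordinates were taken from that table. It gives NPF names for 27 of the 53 listed loci, all as listed here.

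The text names the pair, the other NPF2 genes, up to 6 further NPF genes, up to 6 nitrate and chloride genes and up to 3 genes per marker list (by size of change), neighbours that passed or stood nearest, and the 5 genes most like each member. AT3G01350, AT5G13400, AT3G21670, AT5G11570, AT1G68570, AT5G19640, JKD and the tandem runs were named after their values were seen. A locus listed as a nitrate transport partner was dropped, since the gene table did not bear out its name. The members and lists were chosen with earlier results of these data known. The fits were repeated with quantile normalization or median centring, smaller pseudocounts (10th percentile, or 1), without the weakest 30% of probe sets, without the variance trend, with the replicate number as a block, and with each array left out.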

Additional observations from a re-analysis of the deposited data

How the results depend on the processing

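Both members kept their direction in every setting tried. They were chosen for this direction, and all their control signals lay over all their induced ones. No pseudocount or left-out array could therefore turn it, and it adds no support. AT3G45700 lay at -1.30 with quantile normalization, -2.00 with the pseudocount at the 10th percentile and -2.17 with that of 1, and AT3G45710 lay at -2.86 and -2.90 with these pseudocounts. Leave-one-out values are ranges: -1.44 to -1.32 for AT3G45700, -2.75 to -2.53 for AT3G45710, 3 to 7 other NPF genes lower (9 with all arrays) and 1 higher (1), 1 to 3 root and leaf markers lower (3), 0 neighbours lower (1) and 0 higher (2), and 752 to 899 probe sets lower (2673) and 1083 to 1328 higher (2281). These fits have fewer residual degrees of freedom, and take the spread of a group with 1 array from the other group. The neighbours lower numbered 0 with quantile normalization, median centring and both smaller pseudocounts, and the neighbours higher numbered 1 without the variance trend, where the count at a threshold changed and the cause was not tested. None (0) of the 5 genes most like each member stayed among its 5 nearest with a pseudocount of 1. Counting every probe set of each NPF gene changed nothing, since each has 1. Median centring gave 2578 probe sets higher and 2283 lower, against 2281 and 2673. Signs turned for genes that did not pass: SBPASE lay at 0.0276 after quantile normalization and at 0.0257 after median centring, and with arrays left out SBPASE ranged from -0.12 to 0.0748, RCA from -0.30 to 0.00439, PRK from -0.00888 to 0.12, AT1G09750 from -0.21 to 0.0337, AT3G45690 from -0.27 to 0.13 and AT3G45720 from -0.21 to 0.00402, and the cause was not tested. Same-numbered arrays share only a number, and their deviations correlated at 0.0807. With that number as a replicate block 11 other NPF genes were lower and 6301 probe sets changed (2753 higher, 3548 lower), against 4954. Weak signal limits AT3G45700, AT3G45690 and AT3G45720, which read near or under the pseudocount in at least 1 group.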
